A study of Rattus norvegicus with 2 samples.

Results

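NF-kappaB, cytokine and chemokine genes were followed in cultured rat neural stem cells after the inhaled anaesthetic sevoflurane. The set lists 38 genes, and its members were the array's RefSeq mRNA probes whose accession belongs to such a gene. Of these genes, 31 had a usable probe (33 probes in all), among 13862 named genes with a usable RefSeq mRNA probe. Nfkb1, Relb, Nfkbiz, Tnfaip3, Il1r1, Traf1 and Csf2 had no matched probe and are named only. The cells were neural stem cells, dividing precursors from which neurons and glia derive, taken from the hippocampus of Sprague-Dawley rats on postnatal day 3 and used in passage 3, in serum-free medium with bFGF. The treated group was kept under 2.4% sevoflurane for 6 h and the control group under 0% sevoflurane for 6 h, and both then spent 24 h in an ordinary incubator at 5% CO2. Some labels name only the 6 h time, so the time of harvest is uncertain. Each group had 1 array (1 colour, Cy3, total RNA), so differences have no check by replicates and carry no p-value, and one of at least 2-fold (1 log2 unit) is used as a rule of size. The sources used here do not say whether 1 culture or pooled cultures gave the RNA of an array. Each array was also scanned on its own day, so an effect of scan day cannot be told apart from that of sevoflurane.

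NF-kappaB is a family of transcription factors held in the cytoplasm by inhibitor proteins until signals from Toll-like, interleukin-1 or tumour necrosis factor receptors lead to the inhibitor's breakdown. Its targets include its own inhibitors, cytokines, chemokines (small secreted proteins that attract cells), adhesion molecules and enzymes of prostaglandin and nitric oxide synthesis. In the brain these genes are best known from microglia and astrocytes, and neural precursors also carry the pathway.

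The DNA word that NF-kappaB binds, the kappaB consensus, was looked for on both strands in the 250 bases before the start of each gene (RefSeq, GRCr8). It was present in 967 of 27457 such windows (3.52%) and in 12 of the 30 windows that could be matched to the listed genes (40.0%). Those 12 were Tnfaip3, Bcl3, Nfkb2, Tlr2, Vcam1, Nfkbia, Nfkbie, Il1r1, Ccl20, Nfkbiz, Cxcl2 and Cxcl1. The listed genes include well-known NF-kappaB targets, so this share describes the choice of genes and is no result of the treatment. The AP-1 word TGANTCA, searched in the same way, was in 1747 windows (6.36%) and in 7 of the 30 (23.3%), including those of Nfkb2 and Nfkbie, where it does not overlap the kappaB word. Windows of 5 genes are shown because the results below turn on them: Cxcl1 and Nfkb2, which were higher after sevoflurane, Nfkbia, which stayed within 2-fold, Vcam1, which was lower, and Ptgs2, the gene of the set with the highest measured difference. They are written 5′ to 3′ on the gene's strand, with kappaB matches in capitals, from chr14:17479322-17479571 (minus strand), chr1:255108124-255108373 (plus), chr6:78597073-78597322 (minus), chr2:206742784-206743033 (minus) and chr13:64713813-64714062 (plus).
Cxcl1: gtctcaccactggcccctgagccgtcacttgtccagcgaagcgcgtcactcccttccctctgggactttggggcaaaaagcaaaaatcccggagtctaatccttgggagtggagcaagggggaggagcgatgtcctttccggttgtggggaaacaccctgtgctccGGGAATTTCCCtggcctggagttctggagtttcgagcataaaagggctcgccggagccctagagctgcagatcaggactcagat
Nfkb2: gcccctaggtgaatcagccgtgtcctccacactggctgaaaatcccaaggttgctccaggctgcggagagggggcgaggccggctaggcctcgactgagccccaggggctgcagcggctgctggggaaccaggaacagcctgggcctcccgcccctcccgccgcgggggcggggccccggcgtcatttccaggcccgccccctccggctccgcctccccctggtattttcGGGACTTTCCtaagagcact
Nfkbia: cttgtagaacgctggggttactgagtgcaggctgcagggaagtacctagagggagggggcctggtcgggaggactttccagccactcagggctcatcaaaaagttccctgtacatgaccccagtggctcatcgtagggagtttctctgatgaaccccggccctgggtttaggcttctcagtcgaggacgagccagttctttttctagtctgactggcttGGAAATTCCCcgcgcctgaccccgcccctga
Vcam1: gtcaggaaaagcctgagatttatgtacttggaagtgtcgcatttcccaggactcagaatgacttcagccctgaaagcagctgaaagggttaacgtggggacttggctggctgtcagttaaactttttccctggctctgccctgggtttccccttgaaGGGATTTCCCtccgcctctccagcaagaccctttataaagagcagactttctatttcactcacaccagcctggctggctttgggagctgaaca
Ptgs2: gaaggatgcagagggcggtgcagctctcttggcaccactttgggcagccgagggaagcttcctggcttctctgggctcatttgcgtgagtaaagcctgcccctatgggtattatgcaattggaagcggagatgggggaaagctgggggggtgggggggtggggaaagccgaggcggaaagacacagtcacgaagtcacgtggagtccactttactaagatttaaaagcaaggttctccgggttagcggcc
The capitals begin 84 bases before the start in Cxcl1, 20 in Nfkb2, 31 in Nfkbia and 93 in Vcam1. In Cxcl1 they are 2 overlapping matches, on opposite strands. The window of Ptgs2 holds no match, which says only that these letters are absent from it.

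Of the 31 genes, 20 were measured, that is, well above background on both arrays. A further 5 were well above background on the sevoflurane array only, 2 on the control array only and 4 on neither. Among all named genes the same classes held 72.3%, 15.4%, 1.44% and 10.8%. Signals are given as the scanner software reports them, with the software's own error of the spot, which leaves out differences between cultures. Differences are sevoflurane minus control in log2 units after each array was divided by its 75th percentile signal, which was 359 for sevoflurane and 692 for control. A gene with the same signal on both arrays therefore has a positive difference. By this measure 10 of the 20 measured genes were at least 2-fold higher and 2 at least 2-fold lower, against 28.2% higher and 11.2% lower among all 10028 measured genes. Their median difference was 0.93, against 0.27 over all measured genes.

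**Figure D1:**
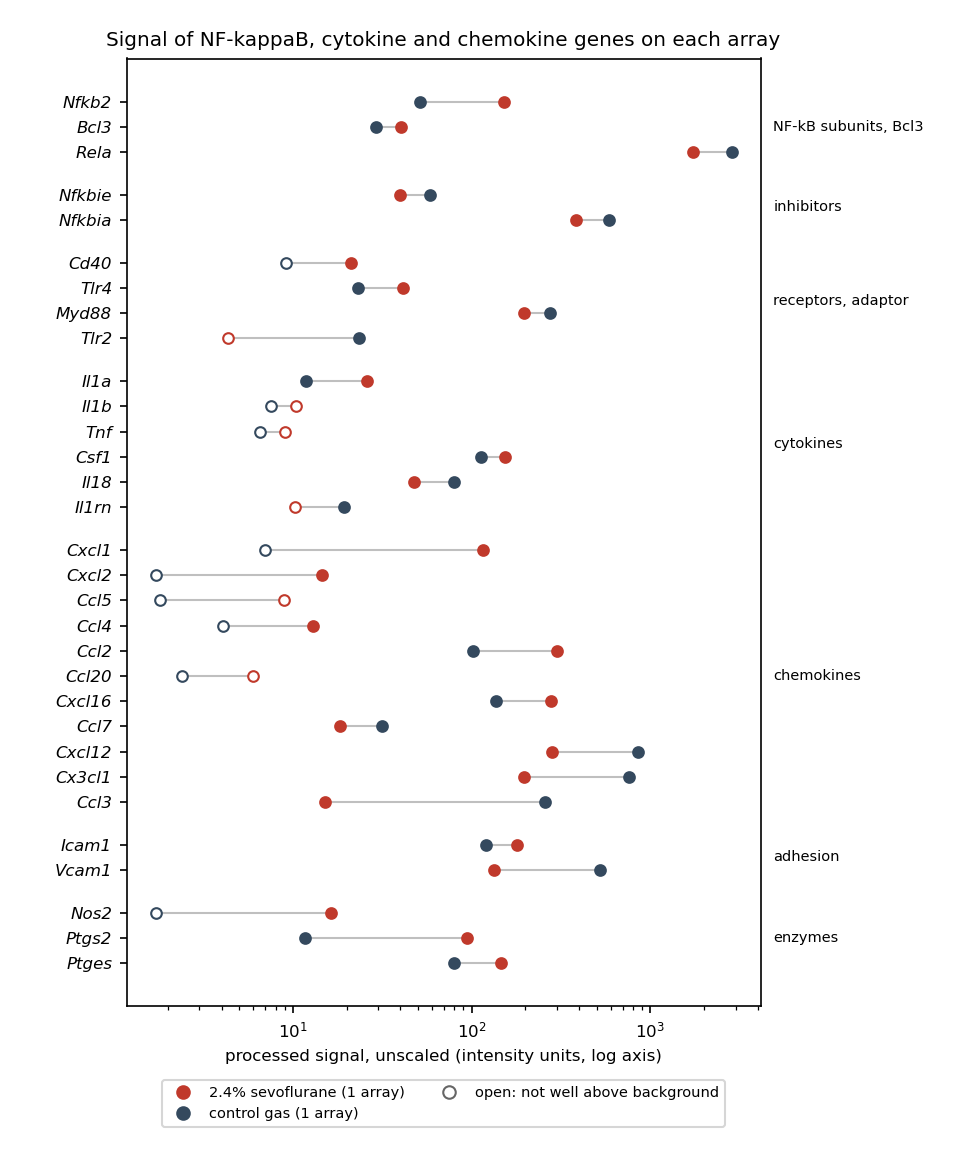
Processed signal of the 31 matched genes on each array, before scaling (log axis, intensity units), grouped by role. Each gene has 1 point for the sevoflurane array and 1 for the control array, open where the spot was not well above background; Cxcl1 (116.5 under sevoflurane, 6.96 under control gas) and Ccl3 (15.1 under sevoflurane, 256 under control gas) lie far apart in opposite directions.

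The difference depended on the level of a gene and on the scaling. With the measured genes split by level into 10 groups of about equal size, the median difference in the dimmest group was 1.69 and 75.6% of its genes were at least 2-fold higher, in the next 1.30 and 58.7%, and in the brightest 0.14 and 11.8%. After centring that removes this trend with level (intensity-dependent centring), 6 of the 20 genes (30.0%) were higher and 3 (15.0%) lower, against 15.0% and 15.5% of all measured genes, and the median was 0.37 against 0.00. Of all genes past 2-fold, 71.5% were higher under the 75th percentile, 49.0% after intensity-dependent centring, 41.0% after quantile normalization, 19.4% after median scaling, 73.2% after normexp background correction and 41.5% in the deposited value table. The median of all genes lay at 0.27, 0.00, -0.10, -0.83, 0.32 and -0.10 in the same order, and each difference below stands relative to that shift. Median scaling lowers every gene by 1.1 log2 units relative to the 75th percentile. Among the 20 genes, 6 were higher and 4 lower after quantile normalization (13.6% and 19.6% of all), 3 and 4 after median scaling (10.5% and 43.5%), 9 and 1 after normexp (23.1% and 8.45%), and 6 and 4 in the deposited table (13.6% and 19.2%). Across these 6 scalings, Ptgs2, Nfkb2 and Ccl2 were at least 2-fold higher in each (3 of 20) and Ccl3 at least 2-fold lower in each (1 of 20), against 7.74% higher and 7.01% lower of the 9971 measured genes with a value in all 6. Cxcl16, Ptges and Icam1 were at least 2-fold higher in all but median scaling.

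**Figure D2:**
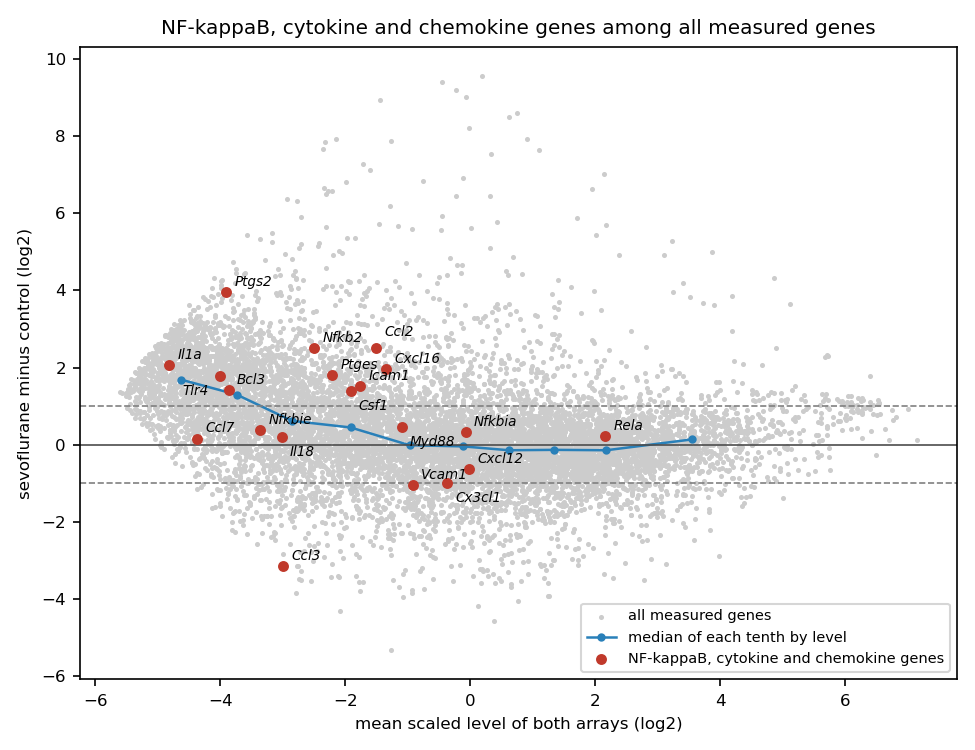
Difference (sevoflurane minus control, log2, 75th percentile scaling) against the mean scaled level of both arrays (log2) for 10028 measured genes in grey, with the 20 measured NF-kappaB, cytokine and chemokine genes in red. The blue line joins the medians of the 10 level groups, which runs from 1.69 at the dim end to 0.14 at the bright end; Ptgs2, Nfkb2, Ccl2 and Cxcl16 lie above it and Ccl3 below.

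Among the transcription factors, Nfkb2 was higher and Rela was not past 2-fold. Nfkb2, which encodes the precursor subunit processed in the non-canonical branch of the pathway, had a signal of 151 ± 15.3 on the sevoflurane array, against 51.4 ± 5.47 on the control array (software error of 1 spot each). Its difference was 2.50 ± 0.21, a 5.67-fold higher level, and 1.41 to 2.50 over the 6 scalings. In its level group, 87 of 1003 genes had a difference at least as high. Rela, the transactivating subunit of the canonical branch, had signals of 1736 ± 174 and 2853 ± 285 on the sevoflurane and control arrays and a difference of 0.23, from -0.87 to 0.36 over the scalings. Bcl3, an atypical inhibitor family member that acts in the nucleus as a coactivator, had signals of 40.2 ± 4.66 under sevoflurane and 29.1 ± 3.40 under control gas. Its difference of 1.41 was near the median of its level group, 1.30, and was 0.09 after intensity-dependent centring.

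Neither of the measured inhibitor genes was past 2-fold under any of the scalings. Nfkbia, the gene of the inhibitor IkappaB alpha and a target through which the pathway limits itself, had a signal of 382 ± 38.3 under sevoflurane, against 588 ± 58.9 under control gas. The difference was 0.32 ± 0.20 and ranged from -0.77 to 0.42. Nfkbie, of the related inhibitor IkappaB epsilon, had 39.9 ± 4.62 under sevoflurane and 58.8 ± 6.15 under control gas, with a difference of 0.39 that became -0.65 after intensity-dependent centring. Both windows before these genes hold a kappaB word, as does that of Nfkb2.

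Of the receptors and their adaptor, Tlr4 and Myd88 were measured on both arrays. Tlr4, the receptor of bacterial lipopolysaccharide, had signals of 41.3 ± 4.73 under sevoflurane and 23.2 ± 2.99 under control gas, with a difference of 1.78 that was 0.37 after intensity-dependent centring. Myd88, the adaptor of Toll-like and interleukin-1 receptors, had 198 ± 19.9 under sevoflurane and 276 ± 27.6 under control gas, a difference of 0.47 (-0.63 to 0.47). Cd40, a co-stimulatory receptor of the tumour necrosis factor receptor family, was well above background on the sevoflurane array only (21.2 ± 3.12, against 9.18 ± 2.12 on the control array). Its level was 4.45-fold higher under the 75th percentile. Its control signal exceeded the lowest one well above background there (7.22), so this is the ratio of its measured signals and no lower bound. Under other scalings the Cd40 difference was -0.19 after quantile normalization, -0.18 in the deposited table and 0.40 after intensity-dependent centring, so its direction depended on the scaling. Tlr2, the receptor of bacterial lipopeptides, went the other way. It had 4.36 ± 2.25 on the sevoflurane array, not well above background, against 23.3 ± 3.09 on the control array, at least 1.76-fold lower. Taken with that dim sevoflurane signal, the Tlr2 difference was -3.32 after intensity-dependent centring and -3.36 after quantile normalization, but 0.68 after normexp. In the deposited table, whose lowest values are tied, it was -2.51. Of the 200 genes well above background on the control array only, 30.0% had a bound of at least 2-fold. For these bounds, the bright array's level is divided by whichever is greater on the other array, the gene's signal or the lowest signal there that was well above background (6.88 for sevoflurane, 7.22 for control). Every such bound here belongs to the 75th percentile scaling and is no bound under another.

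The cytokine genes were dim or depended on the scaling, and none of the 3 measured was past 2-fold after intensity-dependent centring. Csf1, the growth factor of microglia and macrophages, had signals of 154 ± 15.6 under sevoflurane and 113 ± 11.5 under control gas and a difference of 1.39 ± 0.21, from 0.29 to 1.39 over the scalings. Il1a, of the alarm cytokine interleukin-1 alpha, had 25.96 ± 3.45 under sevoflurane and 11.9 ± 2.14 under control gas. Its difference of 2.07 was close to the 1.69 of its level group, in which 338 of 1003 genes were at least as high, and was 0.05 after quantile normalization. Il18, of a cytokine matured by the inflammasome, had 47.5 ± 5.30 and 79.6 ± 8.18 on the sevoflurane and control arrays and a difference of 0.20, negative in 4 of the 6 scalings. Tnf and Il1b, of the inflammatory cytokines tumour necrosis factor and interleukin-1 beta, were not well above background on either array, with 8.99 and 10.4 under sevoflurane and 6.57 and 7.57 under control gas. Il1rn, which encodes the natural antagonist of the interleukin-1 receptor, was well above background on the control array only (10.3 ± 2.56 under sevoflurane, 19.2 ± 2.60 under control gas), and no fold can be given.

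Of the 6 measured chemokine genes 2 were higher and 1 lower, against 28.2% and 11.2% of all measured genes. After intensity-dependent centring 2 were higher and 2 lower, against 15.0% and 15.5% of all. Cxcl1, which attracts neutrophils, was well above background on the sevoflurane array only, with 116.5 ± 11.9 there, against 6.96 ± 1.93 on the control array. Under the 75th percentile its level was at least 31.1-fold higher, and of the 2131 genes well above background on the sevoflurane array only, 50 (2.35%) had a bound at least as high. The values were smaller under other scalings: with the measured control signal, itself not well above background, the difference was 2.22 after normexp and 3.50 to 3.55 after quantile normalization, in the deposited table and after intensity-dependent centring. Ccl2, which attracts monocytes, had 299 ± 30.0 under sevoflurane, against 102 ± 10.3 under control gas. Its difference was 2.50 ± 0.21 (5.64-fold), from 1.40 to 2.50 over the scalings, and 75 of 1002 genes of its level group were at least as high. Cxcl16, a membrane-bound chemokine and scavenger receptor, had 278 ± 27.9 under sevoflurane and 137 ± 13.8 under control gas, a difference of 1.96 ± 0.21 (0.87 to 1.96).

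Ccl3, a chemokine made by activated microglia and macrophages, was the lowest of the measured genes of the set. Its signal was 15.1 ± 2.76 under sevoflurane, against 256 ± 25.6 under control gas. The difference was -3.13 ± 0.30, an 8.77-fold lower level, and ran from -4.86 to -1.41 over the scalings. Of the 1003 genes in its level group, 7 including Ccl3 itself were at or below this difference. Ccl4, the close paralogue of Ccl3, had 12.9 ± 2.68 under sevoflurane and 4.08 ± 1.86, not well above background, under control gas, at least 3.44-fold higher under the 75th percentile. Its direction depended on the scaling, with a difference of -0.60 after quantile normalization but 0.76 after intensity-dependent centring and 1.14 after normexp. In the deposited table, whose lowest control values are tied, it was 0.27. Ccl3 was lower together with microglial markers. Of 13 measured, 9 were at least 2-fold lower and 1 higher, against 11.2% and 28.2% of all measured genes. The summed scaled level of the markers was 6.61 under sevoflurane and 19.8 under control gas. Itgam and Cx3cr1, of 15 microglial markers, were not well above background on either array. The part of these markers in the result was not tested, and fewer cells of a type and less RNA per cell cannot be told apart in such samples.

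Cxcl12 and Cx3cl1, chemokines that neural cells themselves make, were lower in each of the 6 scalings, but past 2-fold only in some. Cxcl12, which guides precursors and neurons through the receptor CXCR4, had probes for 3 RefSeq transcripts. The brightest had 283 ± 28.4 under sevoflurane, against 848 ± 84.8 under control gas, and a difference of -0.64 ± 0.20. The other probes had 259 ± 26 and 76.2 ± 8.02 under sevoflurane, against 866.5 ± 86.7 and 320 ± 32.0 under control gas, with differences of -0.80 and -1.12. The 3 probes went the same way, and after intensity-dependent centring they were at -0.54, -0.70 and -1.45. Cx3cl1, the neuronal chemokine fractalkine, had 196 ± 19.8 under sevoflurane, against 756 ± 75.6 under control gas. Its difference of -1.0 ± 0.20 fell just short of 2-fold, and over the scalings it ran from -2.09 to -0.92.

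Of the other chemokine genes, Ccl7, a monocyte attractant like Ccl2, had 18.3 ± 2.97 under sevoflurane and 31.6 ± 3.62 under control gas. Its sign depended on the scaling, with 0.16 under the 75th percentile and -1.38 after intensity-dependent centring. Cxcl2, a neutrophil attractant next to Cxcl1 on the chromosome, was well above background on the sevoflurane array only (14.6 ± 2.72, against 1.70 ± 1.70 under control gas). Under the 75th percentile it was at least 3.89-fold higher. With its measured signals the difference was 2.20 after intensity-dependent centring, 1.77 after quantile normalization and 1.17 after normexp. In the deposited table it was 0.36, but 6203 control probes, 5 of them of the set, share the lowest value there. A control signal this dim may stand at that tied value. Ccl5 and Ccl20 were not well above background on either array. Dim genes differed between the arrays as a whole under the 75th percentile. All 2131 genes well above background on the sevoflurane array only had a bound of at least 2-fold (100%). The scaling nearly fixed this in advance. The lowest signals well above background were close (6.88 for sevoflurane, 7.22 for control), whereas the 75th percentiles were 359 and 692. The same offset works against such a bound for genes of the control array only. The median bound of the 2131 genes was 4.94-fold, and Cxcl1 alone of the 5 here seen on the sevoflurane array only exceeded it. Cd3e, which marks T lymphocytes, was also well above background on that array only, with a signal of 22.6 under sevoflurane, against 1.73 under control gas. The negative control spots had median signals of 2.33 (149 spots, sevoflurane) and 1.79 (151 spots, control).

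The adhesion molecule genes differed in direction. Icam1, the ligand of leukocyte integrins, had 179 ± 18 under sevoflurane, against 121 ± 12.2 under control gas, and a difference of 1.51 ± 0.21 (0.42 to 1.51). Vcam1, also a marker of quiescent neural stem cells in the adult brain, had 133 ± 13.5 under sevoflurane, against 524 ± 52.4 under control gas. Its difference was -1.03 ± 0.21, from -2.13 to -0.82, and it was at least 2-fold lower in 5 of the 6 scalings. The window before Vcam1 shown above holds a kappaB word, like those of the higher genes Nfkb2 and Cxcl1.

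The enzymes of prostaglandin synthesis were both higher. Ptgs2, the inducible cyclooxygenase that makes the prostaglandin precursor, had 94.7 ± 9.73 under sevoflurane, against 11.8 ± 2.25 under control gas. The difference was 3.96 ± 0.31 (15.5-fold) and at its least 1.90, after normexp. Of 1003 genes in its level group, whose median was 1.30, 16 were at least as high. Ptges, the synthase that makes prostaglandin E2 from that precursor, had 146 ± 14.8 under sevoflurane and 80.2 ± 8.20 under control gas, a difference of 1.81 ± 0.21 (0.71 to 1.81). Nos2, the inducible nitric oxide synthase, was well above background on the sevoflurane array only (16.4 ± 2.88, against 1.72 ± 1.72 under control gas), at least 4.38-fold higher, which is below the median bound of such genes.

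**Figure D3:**
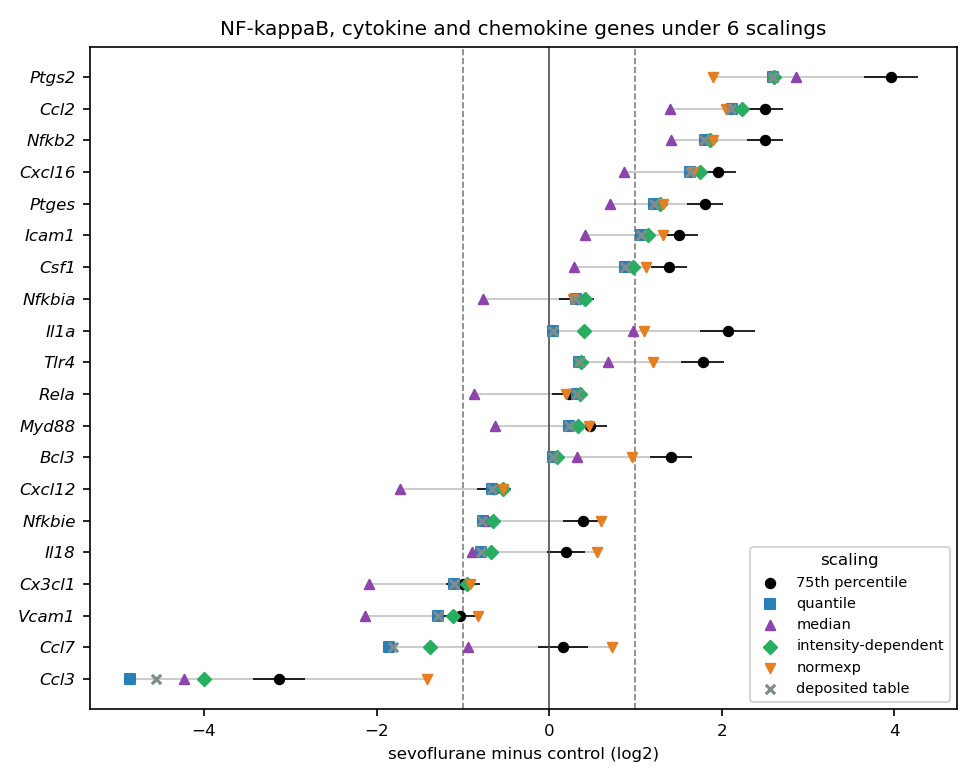
Differences (sevoflurane minus control, log2) of the 20 measured genes under 6 scalings, ordered by the intensity-dependent value. Bars are the scanner software's error of the 75th percentile value, dashed lines mark 2-fold, and the grey line spans the lowest and highest value; Ptgs2, Ccl2 and Nfkb2 stay right of 1 and Ccl3 left of -1.

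Other genes of NF-kappaB signalling, its targets and the receptors of cytokines and chemokines formed a further list of 105 genes, of which 86 had a probe and 58 were measured. Of these, 24 were at least 2-fold higher and 4 lower, with a median of 0.88 (28.2%, 11.2% and 0.27 over all measured genes). After intensity-dependent centring 16 were higher, 6 lower and the median was 0.18 (15.0%, 15.5% and 0.00 over all measured genes). The counts by group below stand beside the same shares. The 15 measured kinases and adaptors had 4 higher and 0 lower, and after centring 1 and 1. The 6 further Rel and inhibitor genes had 1 and 0, and after centring 1 and 0. The 19 measured further targets had 9 higher and 1 lower, and after centring 8 and 1. The 18 measured receptors had 10 higher and 3 lower, and after centring 6 and 4. Over all 6 scalings, 9 of the 58 were at least 2-fold higher and 3 lower, against 7.74% and 7.01% of the measured genes. The 8 with the highest absolute difference were Il1rl1, the receptor of interleukin-33 (4.70), Cxcl10, an interferon-induced chemokine (4.41), Tnfrsf12a, the receptor of the cytokine TWEAK (3.57), the transcription factor gene Cebpb (3.50), the interleukin-1 decoy receptor Il1r2 (3.29), the matrix protease gene Mmp9 (3.17), Cxcr6 (3.12) and Ier3 (3.09), an early response gene. The 3 lower in each scaling were Csf1r (-2.58), the chemokine gene Cxcl14 (-1.96, from -3.06 to -1.58 over the scalings) and Cxcr4 (-1.65).

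Receptors of the chemokines and cytokines above were given because they pair with a ligand of the set. Cxcr4, the receptor through which Cxcl12 signals, had 440 under sevoflurane, against 2663 under control gas, a difference of -1.65 (-2.75 to -1.47). Ackr3, which scavenges the same ligand, had 116 under sevoflurane and 579 under control gas, a difference of -1.37 (-2.47 to -0.98). The ligand and both of its receptors were thus lower in each scaling. Cxcr6, the receptor of Cxcl16, had 67.2 under sevoflurane, against 14.9 under control gas, and was higher like its ligand (1.57 to 3.12 over the scalings). Csf1 and its receptor went apart: Csf1r, a microglial receptor, had 126 under sevoflurane, against 1443 under control gas, a difference of -2.58 (-3.67 to -2.18). Ccr2, the receptor of Ccl2, had 30.2 and 22.9 on the sevoflurane and control arrays, with 1.35 under the 75th percentile and -0.16 after intensity-dependent centring. Cx3cr1 and Il18r1, the receptors of Cx3cl1 and Il18, were not well above background on either array. Cxcr2, the receptor of Cxcl1 and Cxcl2, was so on the sevoflurane array only (17.1, against 2.92 under control gas), at least 4.56-fold higher, below the median bound of such genes.

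Of 9 markers of neural stem cells, the labelled cell type, 8 had a probe and all 8 were measured, with 2 higher, 0 lower and a median of -0.16. Their summed scaled level was 100 under sevoflurane and 75.6 under control gas. Vim weighed most in both sums, with signals of 26450 under sevoflurane and 26810 under control gas. Fabp7, the next brightest, had 3904 and 10270 on the sevoflurane and control arrays. The sums therefore say little about the other markers. Red blood cell markers summed higher under sevoflurane (142) and neuronal markers under control gas (92.6), so these values do not settle the cell type. Counts for markers of other cells stand beside shares of 28.2% higher and 11.2% lower over all measured genes, or 15.0% and 15.5% after intensity-dependent centring. Of the genes in the dimmest level group 75.6% were higher, and in the next 58.7%. All 6 measured red blood cell genes were at least 2-fold higher (summed scaled level 142 under sevoflurane and 25.6 under control gas). Hbb weighed most in both sums, with signals of 41990 under sevoflurane and 16170 under control gas. Of 7 neuronal markers 0 were higher and 3 lower (summed 38.2 under sevoflurane and 92.6 under control gas), or 0 and 5 after intensity-dependent centring, and of 7 astrocyte markers 2 and 2 (11.1 under sevoflurane and 13.8 under control gas), or 0 and 4 after intensity-dependent centring. Of 7 mesenchymal and pericyte markers 3 were higher and 0 lower (67.3 under sevoflurane and 51.5 under control gas), and of 3 measured endothelial markers 3 and 0 (0.489 under sevoflurane and 0.112 under control gas), or 1 and 0 after centring. No lymphocyte or granulocyte marker was measured on both arrays (summed 0.142 under sevoflurane and 0.0105 under control gas). The part of these cells in the differences of the NF-kappaB, cytokine and chemokine genes was not tested.

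**Figure D4:**
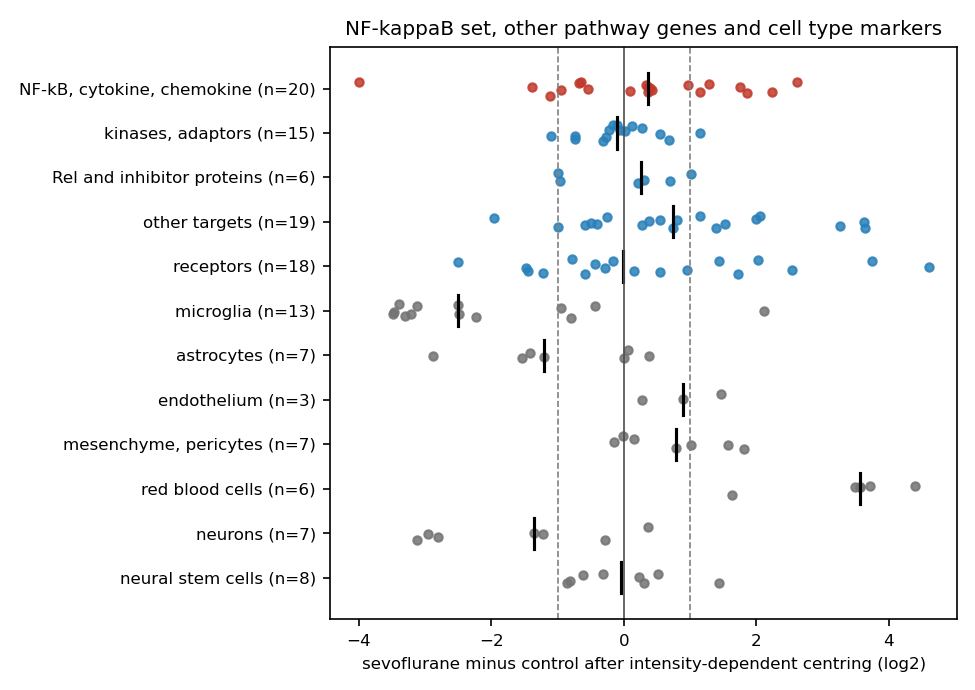
Differences after intensity-dependent centring (sevoflurane minus control, log2) of the measured NF-kappaB, cytokine and chemokine genes, of the other pathway genes in 4 groups and of cell type markers. Each point is a gene, the black bar is the median of its row and dashed lines mark 2-fold; the microglial row has its median at -2.50 and the red blood cell row at 3.56.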

How the data were processed

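Total RNA of 1 sevoflurane and 1 control sample was hybridised to 1-colour arrays. As recorded in the file headers and in the submitters' processing notes, the authors obtained spot intensity with Agilent Feature Extraction 11.0.1.1, background-corrected by that software and not scaled between arrays. The authors also deposited a table of log2 values, made by a method not given in the sources used here. That scale was read from its values, which correlated at 0.991 (sevoflurane) and 0.993 (control) with log2 scanner signals and had medians of 5.61 and 5.60. Its lowest values are tied, in 1165 sevoflurane and 6203 control probes.

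Control spots and spots flagged as outliers were left out (521 and 580 of 42136 on the sevoflurane and control arrays). Log2 processed signals were averaged over the spots of a probe (each probe of the set had 1 spot) less the array's own 75th percentile (24629 probes). Measured means well above background in most spots on both arrays, and a gene is represented by its measured probe of highest mean level. Of the probes, 20538 (sevoflurane) and 16443 (control) were well above background, and no probe of the set was saturated. The number of arrays limits the precision. Accessions were matched without versions to a RefSeq gene table (GRCr8), which gave names to 14248 usable probes. The array design refers to another build (rn4), so no probe coordinates are given, and those of the promoter windows are GRCr8. Alternatives were quantile normalization, median scaling, intensity-dependent centring (lowess, span 0.3, statsmodels 0.14.6), normexp (limma 3.58.1, offset 50, on median signals because mean signals are not among the columns), the deposited table, other filters on dim probes and other summaries of probes and spots. All genes of the set are named. Of the further pathway list, genes past 2-fold in each scaling are named, at most 8 by absolute difference. Genes lower in each scaling and receptors that pair with a ligand were added after their values were seen, as were the genes whose promoters are printed. The members and lists were chosen with earlier results of these data known.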

Additional observations from a re-analysis of the deposited data

How the results depend on the processing

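Counts depended on the scaling. The filter that asks every spot to be well above background, the mean over probes of a gene and the median over spots moved none of the counts or medians by over 1.5 times. For the set this was nearly fixed in advance, because each of its probes had 1 spot and only Cxcl12 had more than 1 probe. These alternatives therefore do not test how firm the set's values are. The genes of the set at least 2-fold higher and lower were 10 and 2 under the 75th percentile, 6 and 4 both in the deposited table and after quantile normalization, 3 and 4 after median scaling, 6 and 3 after intensity-dependent centring, and 9 and 1 after normexp. Their median was 0.93, against 0.27 both in the deposited table and after quantile normalization, -0.17 after median scaling, 0.37 after intensity-dependent centring and 0.84 after normexp. Taking also genes not well above background gave 19 higher, 3 lower and a median of 1.41, with more genes by construction. The further pathway list had 24 higher and 4 lower, against 15 and 11 with quantile normalization, 15 and 10 with the deposited values, 10 and 13 after median scaling, 16 and 6 after intensity-dependent centring, 19 and 5 after normexp, and 48 higher with all genes. Over all measured genes 2823 were higher and 1124 lower, against 1368 and 1968 with quantile normalization, 1359 and 1917 with the deposited values, 1050 and 4364 after median scaling, 1500 and 1559 after intensity-dependent centring, and 6387 higher with all genes. The cause of these shifts was not tested, except that median scaling lowers every gene alike. None of the set's 12 differences of at least 2-fold changed sign under these alternatives, whereas in the further pathway list 5 of 28 did. Their values under the 75th percentile and at their lowest were 1.59 and -1.19 for Ikbkg, 1.22 and -1.16 for Il15, 1.55 and -0.37 for Ikbke, 1.35 and -0.29 for Ccr2, and 1.05 and -0.05 for Map3k14, so that Ikbkg and Il15 were past 2-fold the other way. No paired analysis was possible because each group has 1 array, and for the same reason no sample could be left out. Signals near the lowest value well above background limit Cxcl2, Ccl4, Nos2, Cd40, Tlr2 and Il1rn.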

Other observations

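Genes of the non-canonical branch of the pathway, in which receptors such as the lymphotoxin beta receptor act through the kinase NIK on the product of Nfkb2, were set beside Nfkb2 after their values were seen. Tnfrsf12a, the receptor of TWEAK, had signals of 3138 under sevoflurane and 509 under control gas and a difference of 3.57 (2.48 to 3.75 over the 6 scalings). Ltbr, the lymphotoxin beta receptor gene, had 2486 under sevoflurane and 1313 under control gas, a difference of 1.87 (0.77 to 2.02). Map3k14, the gene of NIK, had 534 and 498 on the sevoflurane and control arrays and a difference of 1.05 (-0.05 to 1.15). Birc3, whose product restrains NIK and which is itself an NF-kappaB target, was well above background on the sevoflurane array only (56.4, against 8.26 under control gas). The ratio of these signals was 13.2-fold under the 75th percentile, and it is no lower bound. Birc2, its relative, differed by -0.52 and Traf2, which acts with them, by 0.86, which was -0.10 after intensity-dependent centring. Chuk, the gene of the kinase that NIK activates in this branch, differed by -0.45 (-1.54 to -0.32), and Ikbkb, of the main kinase of the canonical branch, by -0.31 (-1.41 to -0.17).

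Bcl2a1, a survival gene that is an NF-kappaB target in blood and immune cells, was well above background on the control array only, with 7.33 under sevoflurane, against 345 under control gas. The ratio of these signals was 24.4-fold lower under the 75th percentile, and it is no lower bound. Of the 200 genes well above background on the control array only, 60 (30.0%) had a bound of at least 2-fold. Among interleukin-1 family receptors, Il1rl1 had signals of 898 under sevoflurane and 66.4 under control gas, Il1r2 had 167 under sevoflurane and 33.0 under control gas, and Il1rap, the shared accessory chain, had 75.3 under sevoflurane and 38.3 under control gas, with a difference of 1.92 (0.82 to 1.92). Il33, the ligand of Il1rl1, had 124 under sevoflurane and 120 under control gas and a difference of 1.0, which was 0.54 after intensity-dependent centring.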
